A study of Mus musculus with 8 samples.

Results

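The 6 genes described here have human counterparts that are known causes of developmental epilepsy, and they encode neither an ion channel nor a receptor. They were followed across the *Scn1a* 1b deletion series and are *Pcdh19*, *Chd2*, *Slc2a1*, *Tbc1d24*, *Gnao1* and *Dnm1*. They were chosen by name, as 6 of the 24015 entries of the count table, and all 6 were among the 15588 entries with enough reads to test. In that series a conserved non-coding interval of *Scn1a*, called 1b, was deleted, and the question was which transcripts differ in the brain as a result. The product of *Scn1a* is the sodium channel NaV1.1, and its loss of function in people causes Dravet syndrome, a severe childhood epilepsy.

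Messenger RNA was sequenced from 8 C57BL/6N mice at postnatal day 7 (P7), with 1 library per mouse. The 2 WT mice, both male, had no deleted allele. Heterozygous 1b+/- mice carried 1 deleted allele (n = 4, 2 males and 2 females), and homozygous 1b-/- mice carried 2 (n = 2, both female). Between WT and 1b-/-, genotype and sex therefore cannot be told apart. The deletion was made with Cas9 and the mice came from 1 line, which was crossed repeatedly to wild-type C57BL/6N mice. The paper states that this makes it far less likely that off-target mutations remained. Any other variant that carriers share could not be told apart from the deletion. No agent was given to any group. The sample labels name the tissue as hippocampus and the methods of the study name forebrain, so the region is uncertain. In bulk tissue, fewer cells of a type and less RNA per cell cannot be told apart.

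Libraries held from 2947770 counts (1b+/- replicate 4) to 20878772 counts (1b+/- replicate 3). Levels below are CPM (counts relative to the library total), scaled between libraries by the trimmed mean of M-values (TMM). *Scn1a* itself followed the labels. It was at 45.1 and 40.5 CPM in WT, at 26.7, 22.2, 25.4 and 15.7 CPM in 1b+/- and at 3.18 and 2.003 CPM in 1b-/-. Neuronal markers were present in every library, with a sum over 10 genes of 6388 to 7898 CPM. Hippocampal markers (8 genes) summed to 202 to 314 CPM and neocortical markers (8 genes) to 1783 to 3543 CPM. *Xist*, the RNA of the inactive X chromosome, was at most 3.13 CPM in the males and at least 270.1 CPM in the females. The library 1b+/- replicate 1 stood apart in its hindbrain and meningeal markers. Its 10 midbrain and hindbrain markers summed to 58.9 CPM, against 6.01 to 21.3 CPM elsewhere, and its 8 meningeal markers to 2059 CPM, against 586 to 1217 CPM. The values that this library moves most are given below with and without it. Other regional content varied too. The 10 choroid plexus markers summed to 1036 and 1091 CPM in WT, to 113 to 1052 CPM in 1b+/- (lowest in replicate 2) and to 499 and 916 CPM in 1b-/-, and the 7 thalamic markers to 171 to 468 CPM over all libraries. The part of this content in the results was not tested.

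The 6 genes act at different points of the neuron and its supply lines. *Pcdh19* encodes a delta-protocadherin, an adhesion protein of the cell surface that pairs with N-cadherin. It is X-linked, and the human disorder affects mainly heterozygous females. *Chd2* encodes a chromatin remodeller of the CHD family, which uses ATP to move nucleosomes. *Slc2a1* encodes GLUT1, the glucose transporter of the blood-brain barrier and of glia. *Tbc1d24* encodes a protein with a TBC domain and a TLDc domain that acts with the small GTPase ARF6 in vesicle traffic. *Gnao1* encodes the alpha subunit of Go, the G protein through which many inhibitory receptors of neurons signal. *Dnm1* encodes dynamin 1, the neuronal GTPase that cuts endocytic vesicles from the presynaptic membrane.

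All 6 genes were expressed well above the detection limit. Single-library counts ran from 197 for *Slc2a1* in 1b-/- replicate 2 to 10193 for *Gnao1* in 1b+/- replicate 3. Counting error alone was therefore between 0.990% and 7.12% of a value. Levels of different genes were compared per kilobase of annotated exon (CPM per kb), which understates a gene that uses only part of its annotated exons. *Gnao1* was the most abundant at 71.1 ± 11.1 CPM per kb (SD, n = 8 libraries), a level above that of 96.2% of the genes tested. *Chd2* followed at 21.9 ± 2.08 and *Slc2a1* at 19.1 ± 2.48 CPM per kb. *Dnm1* stood at 16.7 ± 3.37, *Tbc1d24* at 13.8 ± 1.47 and *Pcdh19* at 10.8 ± 1.81 CPM per kb. On the same scale *Scn1a* averaged 2.04 CPM per kb over all libraries and reached 4.07 in the highest, so each of the 6 was more abundant at P7 than the gene that was targeted.

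Parts of that order held in every library and parts did not. *Gnao1* was above *Chd2*, and *Tbc1d24* above *Pcdh19*, in 8 of 8 libraries. *Chd2* was above *Slc2a1*, and *Dnm1* above *Tbc1d24*, in 7 of 8. *Slc2a1* was above *Dnm1* in only 4 of 8, so these neighbours did not differ beyond their spread. The ranges of neighbours overlapped for every pair except *Gnao1* and *Chd2*.

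Against their closest relatives the genes held different places. *Gnao1* was above *Gnai1* (43.9 CPM per kb), *Gnai3* (61.5) and *Gnaz* (26.0), and below *Gnai2* (123.9), which encode related alpha subunits. *Dnm1*, at 16.7 CPM per kb, was close to *Dnm2* (13.1), the dynamin found in most cells, and *Dnm3* (12.3). *Slc2a1* was above *Slc2a3* (5.42 CPM per kb), which encodes the neuronal glucose transporter GLUT3. *Pcdh19* was below its fellow delta-protocadherins *Pcdh10* (33.7) and *Pcdh17* (18.6). *Chd2* was near *Chd1* (23.4), and *Tbc1d24* lay below the TLDc genes *Oxr1* (20.6) and *Ncoa7* (17.6).

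**Figure D1:**
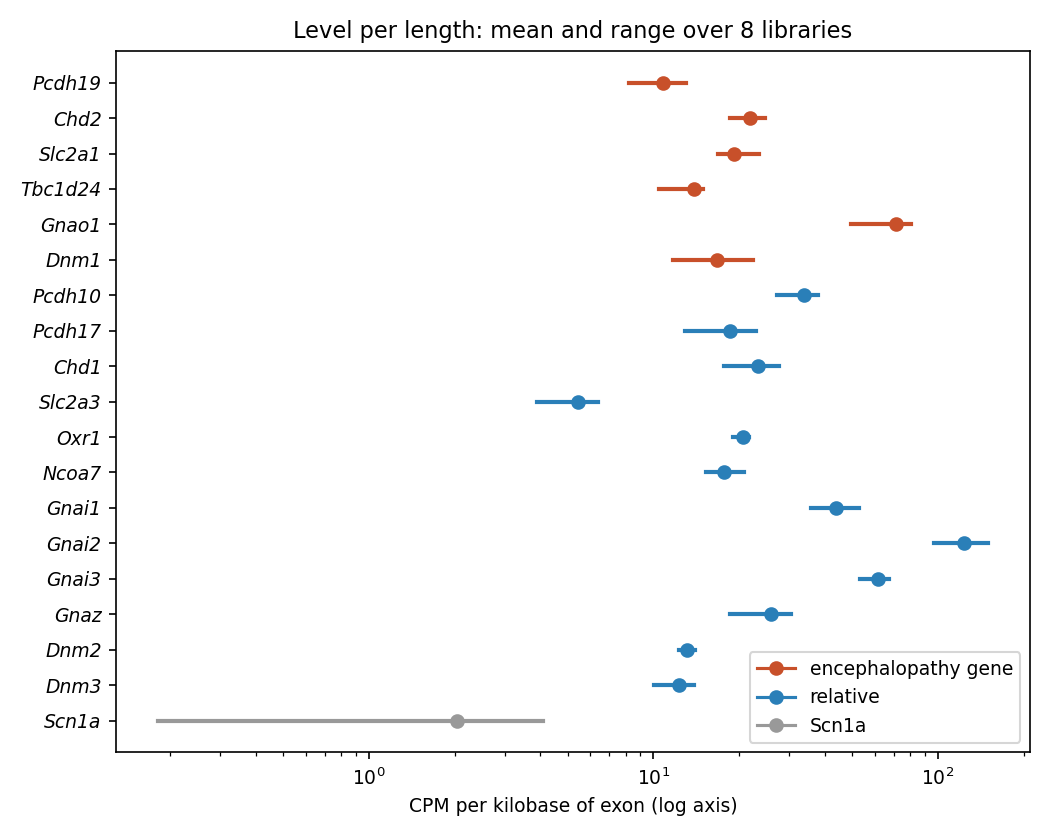
Level of each gene per kilobase of annotated exon (CPM per kb, log axis), with the mean as a point and the range over 8 libraries as a line, for the 6 encephalopathy genes (red), their relatives (blue) and *Scn1a* (grey). *Gnao1* at 71.1 lies far to the right of the other 5 genes, which fall between 10.8 and 21.9, and *Scn1a* has the widest range.

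Whether any of these genes moved with the deletion was tested with the quasi-likelihood test of edgeR, with Benjamini-Hochberg adjustment over all 15588 genes. None of the 6 passed an adjusted p of 0.05 in either mutant genotype against WT, between the mutant genotypes, or in a slope per deleted allele. Of all genes tested, 0.0834% were called in 1b+/- against WT, 0.00642% in each of the comparisons of 1b-/-, and 0.0385% in the slope. None of the 6 reached an unadjusted p of 0.05 either, beside 4.34% of all genes in 1b+/- and 1.64% in 1b-/- against WT, 1.23% between the mutants and 1.73% in the slope. The DESeq2 Wald test and the edgeR likelihood ratio test also called 0 of the 6. The smallest unadjusted p in any of the 3 comparisons was 0.129, for *Gnao1* in 1b+/- against WT (edgeR, across all genes). A p that misses the threshold does not show that the levels were equal, so the values and the intervals of each difference follow.

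*Pcdh19* (ENSMUSG00000051323.9; mm9 chromosome X, 130117402 to 130223532, minus strand) was at 120 and 127.3 CPM in WT. It was at 133.5, 84.3, 117.3 and 89.8 CPM in 1b+/- and at 96.6 and 123.9 CPM in 1b-/-. The highest and the lowest library were both 1b+/-, and the genotypes overlapped. The fitted log2 fold change was -0.21 ± 0.19 (SE) in 1b+/- and -0.17 ± 0.22 in 1b-/- against WT, with 95% intervals of -0.63 to 0.21 and -0.66 to 0.32. In 1b+/- a level below 0.647 of that in WT lay outside the interval.

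Since *Pcdh19* is on the X chromosome, the sexes were compared in the 1b+/- mice, which include both. The 2 males were at 133.5 and 84.3 CPM and the 2 females at 117.3 and 89.8 CPM, so both females lay between the males. The fitted difference, female against male, was -0.06 ± 0.23 on the log2 scale (95% interval -0.59 to 0.46). In that comparison none of the 6 was called (0.0321% of all genes were), and none reached an unadjusted p of 0.05 (2.66% of all genes did), with fitted differences from -0.19 for *Gnao1* to 0.09 for *Tbc1d24*.

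*Chd2* (ENSMUSG00000078671.3; mm9 chromosome 7, 80571577 to 80686632, minus strand) was the steadiest of the 6, with a coefficient of variation of 9.52% over the 8 libraries and 7.71% without 1b+/- replicate 1. It was at 203.5 and 200.6 CPM in WT, at 176.9, 234.7, 198.0 and 225.0 CPM in 1b+/- and at 230.8 and 198.3 CPM in 1b-/-. Both WT values lay inside the 1b+/- range. The log2 fold change was 0.04 ± 0.15 in 1b+/- (95% interval -0.27 to 0.36) and 0.09 ± 0.17 in 1b-/- (-0.28 to 0.46) against WT.

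*Slc2a1* (ENSMUSG00000028645.4; mm9 chromosome 4, 118781316 to 118809935, plus strand) had the lowest counts of the 6. It was at 51.7 and 48.0 CPM in WT, at 54.3, 54.5, 48.2 and 66.8 CPM in 1b+/- and at 63.5 and 49.3 CPM in 1b-/-. Values above 60 CPM occurred in 1 library of each mutant genotype and in neither WT library, but the groups overlapped. The log2 fold change was 0.15 ± 0.17 in 1b+/- (-0.22 to 0.52) and 0.19 ± 0.20 in 1b-/- (-0.24 to 0.61) against WT.

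The 3 libraries with the highest *Slc2a1* were also those with the highest summed endothelial and pericyte markers. These genes mark the vessel wall, where GLUT1 is known to be abundant. The 15 markers, which do not include *Slc2a1*, summed to 615 CPM in 1b+/- replicate 4, 601 in 1b-/- replicate 1 and 510 in 1b+/- replicate 2. They summed to 416 to 498 CPM in the other libraries. The order of the first 3 was the same for *Slc2a1*, but 1b+/- replicate 3, next for the markers (498 CPM), was next to lowest for *Slc2a1* (48.2 CPM). The place of 1b+/- replicate 2 depended on the sum. By the mean log2 level of the markers it (4.60) was below 1b+/- replicate 3 (4.63), and it was highest for 0 of the 15. For *Slc2a1* it (54.5 CPM, counting error 4.30%) hardly differed from 1b+/- replicate 1 (54.3 CPM, 3.49%). By genotype the marker sums were 416 to 465 CPM in WT, 443 to 615 in 1b+/- and 426 to 601 in 1b-/-, no marker was at 0 in any library, and their part in the *Slc2a1* values was not tested.

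*Tbc1d24* (ENSMUSG00000036473.8; mm9 chromosome 17, 24312376 to 24342507, minus strand) was at 118.5 and 116.9 CPM in WT and at 117.3 and 116.9 CPM in 1b-/-. In 1b+/- it was at 120.3, 84.3, 106.8 and 111.8 CPM. All but 1 of the libraries thus lay between 106.8 and 120.3 CPM, and the lowest was 1b+/- replicate 2. The log2 fold change was -0.15 ± 0.15 in 1b+/- (-0.48 to 0.17) and -0.01 ± 0.18 in 1b-/- (-0.39 to 0.38) against WT. Of its annotated exon bases, 1.1% are shared with *Ntn3* on the same strand, and reads there could have been counted for either gene.

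*Gnao1* (ENSMUSG00000031748.9; mm9 chromosome 8, 96333866 to 96493288, plus strand) was at 547.4 and 540.2 CPM in WT. It was at 416.5, 535.3, 494.0 and 335.9 CPM in 1b+/- and at 533.9 and 457.9 CPM in 1b-/-. It was the only one of the 6 whose WT libraries lay above every other library. Of all genes tested, 5.93% were lower in every 1b+/- library than in both WT libraries, and 12% in both 1b-/- libraries, and 3.08% showed the joint order with every mutant library below both WT libraries. The gap between the lower WT library and the highest mutant library was 0.899% of the WT value, less than the counting error of that WT library (1.68%). With RLE or upper quartile scaling the ranges overlapped. The log2 fold change was -0.29 ± 0.17 in 1b+/- (-0.67 to 0.10) and -0.13 ± 0.20 in 1b-/- (-0.58 to 0.31) against WT. With sex as a covariate the change in 1b-/- turned to 0.0609 and the slope per deleted allele to 0.0295. The lowest value came from the shallowest library, 1b+/- replicate 4, and without it the change in 1b+/- was -0.17, while omission of 1b+/- replicate 2 gave -0.39. Neuronal markers were also lower in 1b+/- (sum over 10 genes 6388 to 7630 CPM) than in WT (7754 to 7784), with 7172 to 7898 in 1b-/-. Library by library the orders differed. The lowest neuronal sum (6388 CPM) was in 1b+/- replicate 2, which had the highest *Gnao1* of the mutant libraries (535.3 CPM). In 1b+/- replicate 4, with the lowest *Gnao1* (335.9 CPM), the neuronal sum was 7330 CPM. Hippocampal markers (8 genes) summed to 313.5 and 314.4 CPM in WT, 202 to 278 in 1b+/- and 239 and 294 in 1b-/-, so that both WT sums lay above all others. Gene by gene this did not hold. Each WT library was highest for 1 of the 8 markers and 1b-/- replicate 2 for 3. Of the 8 fitted changes against WT, 1 was above 0 in 1b+/- and 3 in 1b-/-. Astrocyte markers (8 genes) summed to 643 and 845 CPM in WT and 879 to 940 in 1b+/-, with 728 and 736 in 1b-/-. Oligodendrocyte markers (10 genes) summed to 175 and 200 CPM in WT and 228 to 256 in 1b+/-, with 194 and 220 in 1b-/-. The part of these differences in the *Gnao1* values was not tested.

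*Dnm1* (ENSMUSG00000026825.10; mm9 chromosome 2, 32163991 to 32208849, minus strand) varied most, with a coefficient of variation of 20.2%, or 16.8% without 1b+/- replicate 1. It was at 86.9 and 89.6 CPM in WT, at 117.3, 61.6, 91.4 and 73.8 CPM in 1b+/- and at 74.8 and 103.6 CPM in 1b-/-. The highest and the lowest library were both 1b+/-, and without 1b+/- replicate 1 the highest was 1b-/- replicate 2. Mean levels were nevertheless close, at 88.3 ± 1.94 CPM in WT (SD, n = 2), 86.0 ± 24.2 in 1b+/- (n = 4) and 89.2 ± 20.4 in 1b-/- (n = 2). The log2 fold change was -0.03 ± 0.23 in 1b+/- (-0.53 to 0.47) and 0.01 ± 0.27 in 1b-/- (-0.57 to 0.59) against WT. Like *Scn1a*, *Dnm1* is on chromosome 2.

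**Figure D2:**
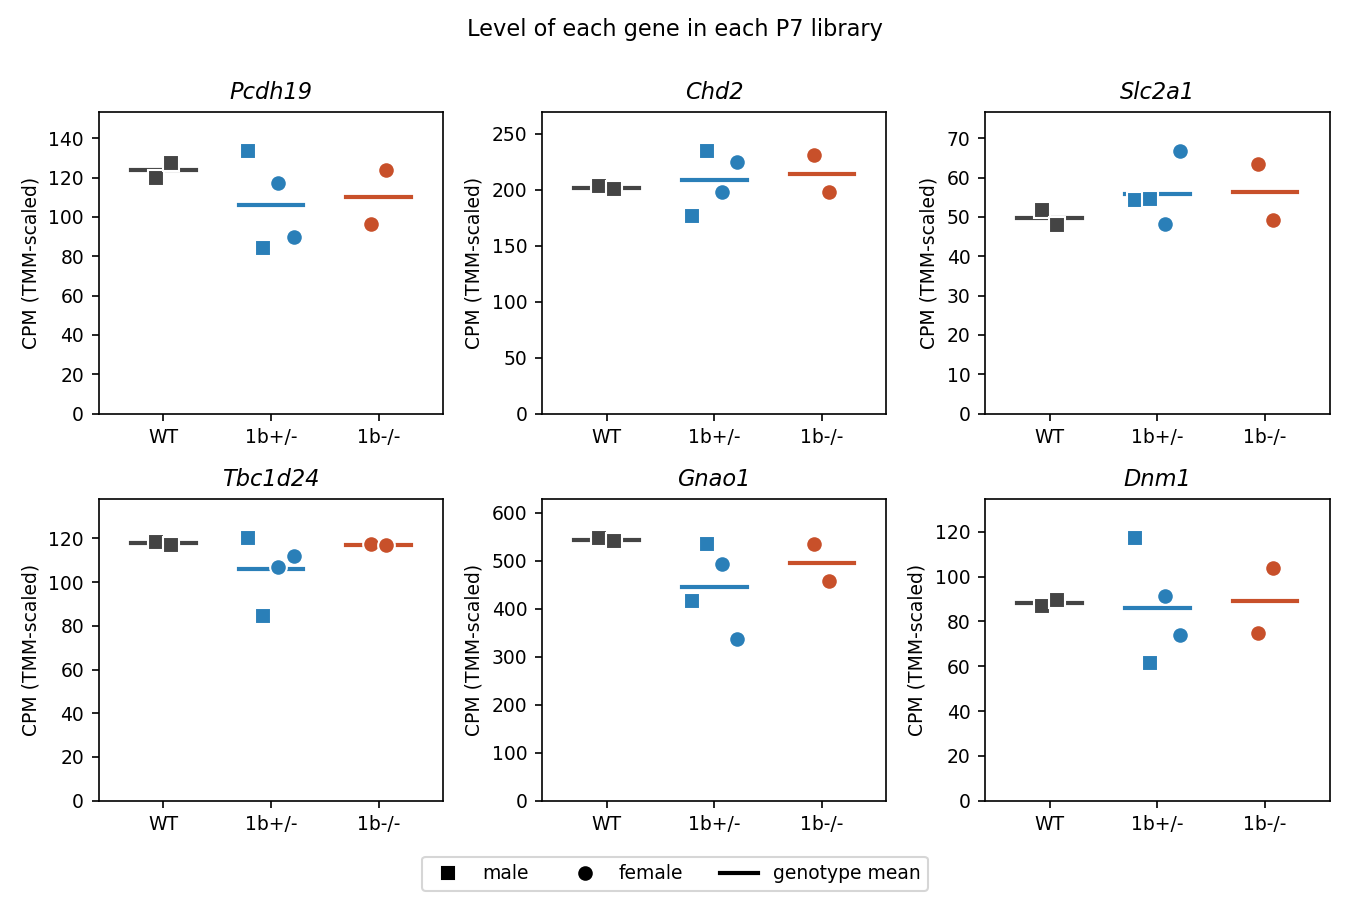
Level of each of the 6 genes (TMM-scaled CPM, axes from 0) in each library by genotype, with males as squares, females as circles and genotype means as bars. The WT pairs lie close together, the 4 1b+/- libraries spread widely for *Dnm1* (61.6 to 117.3 CPM), and only *Gnao1* has both WT libraries above all others.

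Directly between the mutant genotypes, all 6 fitted changes were above 0 in 1b-/- against 1b+/-, from 0.03 for *Slc2a1* to 0.15 for *Gnao1* and *Tbc1d24*. None differed from 0 beyond its error, and the intervals ran from -0.47 to 0.54 (both bounds for *Dnm1*). The share of all genes above 0 in this comparison was not computed. With sex as a covariate the value for *Slc2a1* fell below 0 (-0.0014). Omitting each library in turn gave values down to -0.21 for *Dnm1*, -0.17 for *Slc2a1*, -0.14 for *Pcdh19* and -0.0723 for *Chd2*. *Gnao1* and *Tbc1d24* stayed above 0. Without 1b+/- replicate 1 the value for *Chd2* was -0.03. Without that library the log2 fold changes in 1b+/- against WT were -0.34 for *Pcdh19*, 0.12 for *Chd2*, 0.17 for *Slc2a1*, -0.23 for *Tbc1d24*, -0.25 for *Gnao1* and -0.22 for *Dnm1*, and none was called. Over the 3 comparisons every interval of the 6 genes lay between 0.629-fold (*Gnao1*, 1b+/- against WT) and 1.53-fold (*Slc2a1*, 1b-/- against WT). *Scn1a* itself had a log2 fold change of -0.90 ± 0.21 in 1b+/- against WT and was not called there (adjusted p = 0.381, edgeR quasi-likelihood test), so a change of that size in 1b+/- can miss the threshold. In 1b-/- against WT, the fitted log2 fold change of *Scn1a* was -3.97 ± 0.32, with an adjusted p of 0.000596 (edgeR quasi-likelihood test). The median over the 6 genes was -0.09, 0.00083 and 0.04 in the 3 comparisons, beside 0.01, -0.0056 and -0.0043 over all genes tested.

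**Figure D3:**
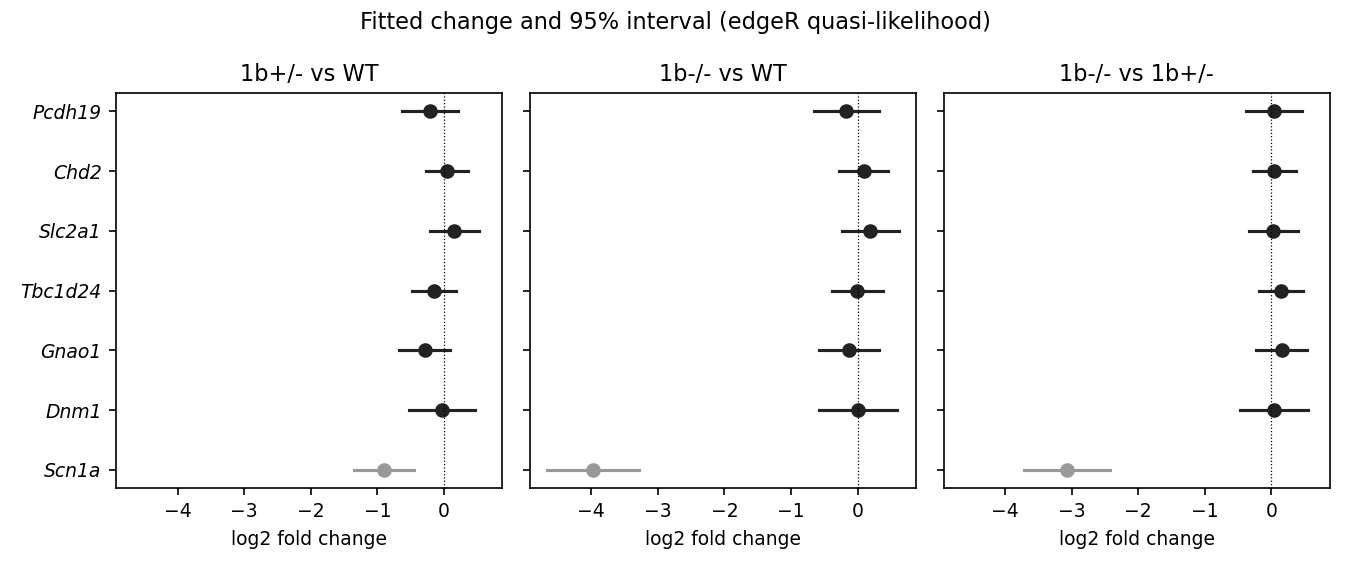
Fitted log2 fold change (point) and 95% interval (line) from edgeR for the 6 genes (black) and *Scn1a* (grey) in the 3 comparisons of genotypes. Every interval of the 6 genes includes 0 and lies within -0.67 to 0.61, whereas the intervals of *Scn1a* lie wholly below 0.

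The genes varied more within 1b+/- than between the 2 WT mice. For *Dnm1* the range was 64.7% of the mean in 1b+/- (39.4% without replicate 1), 32.3% in 1b-/- and 3.11% in WT. For *Pcdh19* it was 46.3% (33.9% without replicate 1), 24.8% and 5.96%. For *Gnao1* it was 44.8% (43.8% without replicate 1), 15.3% and 1.33%. *Chd2* had ranges of 27.7% (16.8% without replicate 1), 15.1% and 1.43%, and *Slc2a1* of 33.1%, 25.2% and 7.46%. For *Tbc1d24* the range was 33.9% in 1b+/-, but 0.304% in 1b-/- and 1.33% in WT. A range over 4 libraries is wider than one over 2 by construction, and these ranges were not tested against each other.

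This variation between libraries was partly shared by *Chd2*, *Dnm1* and *Pcdh19*. *Chd2* was highest (234.7 CPM) where *Dnm1* (61.6 CPM) and *Pcdh19* (84.3 CPM) were lowest, in 1b+/- replicate 2. It was lowest (176.9 CPM) where they were highest (117.3 and 133.5 CPM), in 1b+/- replicate 1. Of the 15 pairs of the 6 genes, 3 passed an adjusted p of 0.05 for Pearson's r of log2 levels over the 8 libraries (exact two-sided permutation test, adjusted over the 15). For *Chd2* and *Dnm1* r was -0.957 (exact permutation p = 0.000174, adjusted p = 0.0026) and Spearman's rho -0.952 (exact permutation p = 0.00114, adjusted p = 0.0171). For *Pcdh19* and *Dnm1* r was 0.928 (exact permutation p = 0.000471, adjusted p = 0.00353) and rho 0.881 (exact permutation p = 0.00724, adjusted p = 0.0543). For *Pcdh19* and *Chd2* r was -0.930 (exact permutation p = 0.00139, adjusted p = 0.00694) and rho -0.810 (exact permutation p = 0.0218, adjusted p = 0.109). By rank only the first pair thus passed. The other 12 pairs did not pass (smallest adjusted p = 0.12, exact permutation test).

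Leaving out libraries kept the sign of each relation but not each call. Without the 2 libraries farthest from the median of the first gene named, r was -0.912 for *Chd2* and *Dnm1*, 0.849 for *Pcdh19* and *Dnm1* and -0.920 for *Pcdh19* and *Chd2*. Without 1b+/- replicate 1, *Pcdh19* and *Chd2* no longer passed (r = -0.954, adjusted p = 0.0556, exact permutation test), and without 1b+/- replicate 2 both pairs with *Pcdh19* did not (adjusted p = 0.0536 for each, exact permutation test). The permutation treats all libraries as exchangeable, and the pairs were noticed in the same data.

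The libraries were divided into 2 sets after seeing their levels of *Pcdh19*, *Dnm1* and *Chd2*. The ranges of these genes therefore differ between the sets by construction and are given as a description only. Neither set was large enough for a test within it. In 1b+/- replicates 2 and 4 and 1b-/- replicate 1, *Pcdh19* was at 84.3 to 96.6 CPM, *Dnm1* at 61.6 to 74.8 CPM and *Chd2* at 225.0 to 234.7 CPM. In the other 5 libraries *Pcdh19* was at 117.3 to 133.5 CPM, *Dnm1* at 86.9 to 117.3 CPM and *Chd2* at 176.9 to 203.5 CPM. *Pcdh19* had its widest gap between the sets, while *Dnm1* and *Chd2* had gaps about as wide inside them. A pooled r over both sets includes the difference between them. The first 3 libraries are also those with the highest *Slc2a1* and endothelial and pericyte sums, but not those with the highest mean log2 level of these markers. They include the shallowest library and no WT library, and the part of depth, genotype, sex or tissue content in this set was not tested.

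Other genes had correlations of this size too. Of 9608 genes with a mean of at least 10 CPM, 1.05% had an r of 0.9 or more in size with *Chd2* and 1.98% with *Dnm1*. The share was 2.34% for *Gnao1*, 1.06% for *Pcdh19*, 0.572% for *Tbc1d24* and 0.0624% for *Slc2a1*. All such values share the same 8 libraries.

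**Figure D4:**
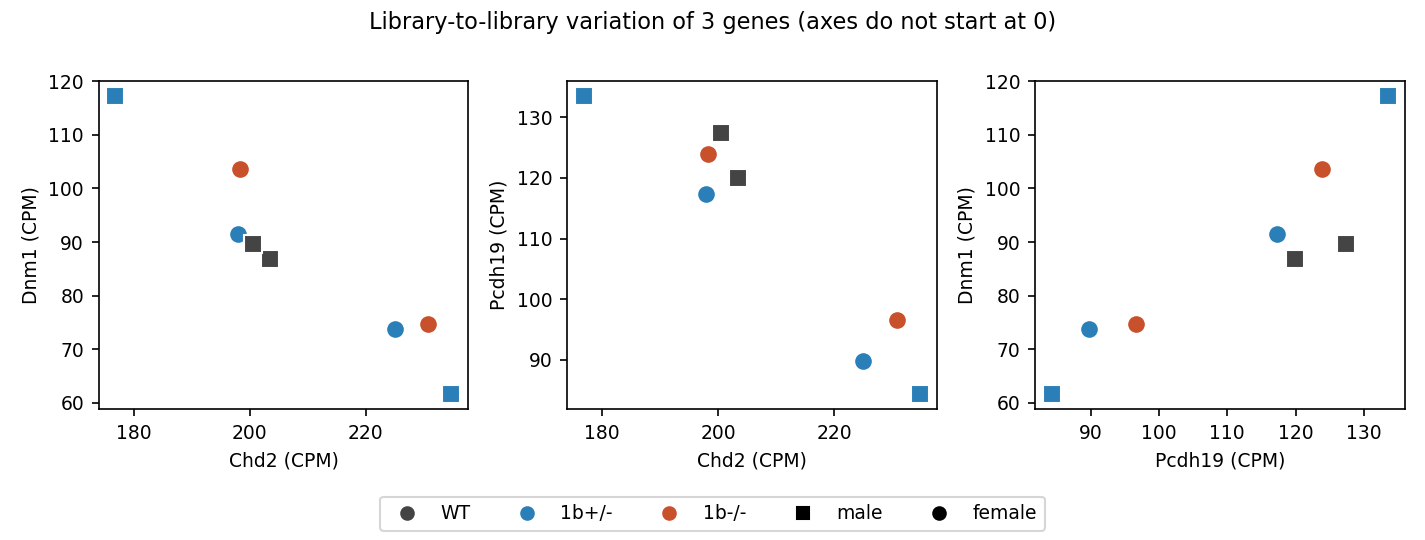
Levels in CPM of *Dnm1* against *Chd2*, *Pcdh19* against *Chd2*, and *Dnm1* against *Pcdh19*, 1 point per library, coloured by genotype and shaped by sex, with axes that do not start at 0. The 3 libraries with *Chd2* at 225.0 CPM or more have *Dnm1* at 74.8 or less and *Pcdh19* at 96.6 or less, and 1b+/- replicate 1 lies at the opposite corner.

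The genes most like each member in their profile over the 8 libraries, by Pearson's r of log2 CPM and as a description only, were as follows. For *Slc2a1* they were *Zfp568* (0.949), *Ehd2* (0.928) and *Pecam1* (0.928), the last already among the endothelial and pericyte markers summed above. For *Chd2* they were *Gpr116* (0.956), *Heg1* (0.947) and *Utp20* (0.947). For *Pcdh19* they were *Cobl* (0.985), *Nanos1* (0.980) and *Ncald* (0.968). For *Dnm1* they were *Slc24a3* (0.989), *Zcchc12* (0.984) and *Unc13c* (0.976). For *Gnao1* they were *AI314180* (0.985), *Arhgef26* (0.984) and *Cap2* (0.984). For *Tbc1d24* they were *Abcg1* (0.973), *Ipcef1* (0.959) and *Adcy1* (0.957), the last a neuronal adenylyl cyclase. Without 1b+/- replicate 1 these values lay between 0.918 and 0.991.

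The pathways around the 6 genes were read from lists of partner genes. Of 180 listed genes, 177 were tested, and none passed an adjusted p of 0.05 in any of the 3 comparisons with edgeR or with DESeq2. At an unadjusted p of 0.05, 7 genes were reached in 1b+/- against WT (1 higher, 6 lower), 2 in 1b-/- against WT (both lower) and 3 between the mutant genotypes (2 higher and 1 lower in 1b-/-). As shares of the list these are 3.95%, 1.13% and 1.69%, beside 4.34%, 1.64% and 1.23% of all genes tested. The genes named below were close relatives of the 6 or had the smallest unadjusted p of their list in 1 direction, and none of them is a call.

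Among delta-protocadherins and the N-cadherin and WAVE proteins they work with (15 tested), 1 of 15 fitted changes was above 0 in 1b+/- against WT, with a list median of -0.18, and 4 of 15 in 1b-/- against WT, with a median of -0.12. Of the 10 neuronal markers, 1 was above 0 in 1b+/- (median -0.21) and 2 in 1b-/- (median -0.07) against WT, and their part in the list's values was not tested. The smallest p belonged to *Wasf1*, which encodes WAVE1, a regulator of actin branching. It was at 51.6 and 58.2 CPM in WT, at 36.7, 46.5, 49.8 and 35.4 CPM in 1b+/- and at 44.2 and 49.6 CPM in 1b-/-. All mutant libraries were below both WT libraries, as for 3.08% of all genes. Its log2 fold change in 1b+/- was -0.37 ± 0.17. *Pcdh10* and *Pcdh17* had log2 fold changes of -0.19 ± 0.14 and -0.21 ± 0.21 in 1b+/- and of 0.03 ± 0.17 and 0.03 ± 0.25 in 1b-/- against WT.

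The 8 CHD remodellers other than *Chd2* stayed within -0.17 to 0.06 in 1b+/- and within -0.02 to 0.10 in 1b-/- against WT. *Chd1*, the closest relative of *Chd2*, had log2 fold changes of -0.11 ± 0.16 and 0.04 ± 0.19. *Chd8* had the smallest p among those below 0 in 1b+/-, at -0.17 ± 0.14.

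Of the 14 glucose and lactate transport genes tested, 7 had a fitted change above 0 in 1b+/- and 6 in 1b-/- against WT. *Slc2a3* had log2 fold changes of -0.25 ± 0.19 and -0.20 ± 0.23, and the list medians were 0.00 and -0.07 against WT.

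Of the TLDc, ARF6 and RAB35 genes around *Tbc1d24*, 9 of 10 were tested. *Oxr1* had log2 fold changes of -0.08 ± 0.12 in 1b+/- and -0.11 ± 0.14 in 1b-/- against WT. *Ncoa7*, whose p was the smallest of the list below 0 in both, had -0.21 ± 0.14 and -0.19 ± 0.16. In 1b-/- against 1b+/-, *Arf6* was at 0.06 ± 0.15.

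Around *Gnao1*, 26 of 27 listed G protein subunits and 26 of 27 effectors and regulators were tested. *Gng2*, a gamma subunit, was at 2381 and 2533 CPM in WT, at 1508, 1854, 2223 and 1980 CPM in 1b+/- and at 2246 and 2148 CPM in 1b-/-. All mutant libraries were below both WT libraries, again as for 3.08% of all genes. Its log2 fold change was -0.38 ± 0.15 in 1b+/- against WT (unadjusted p = 0.0306, edgeR, across all genes). The related alpha subunits *Gnai1*, *Gnai2*, *Gnai3* and *Gnaz* had log2 fold changes of -0.20, -0.16, -0.06 and -0.20 in 1b+/- against WT, and each 95% interval included 0. *Rgs19*, a regulator that speeds the turning off of G proteins, had 0.43 ± 0.19 in 1b-/- against 1b+/-.

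The 3 subunits or regulators with the largest fitted changes had too few reads for a fold change to be given. *Gnb3* had 5 and 7 counts in the WT libraries, 7, 4, 4 and 0 in 1b+/- and 0 in both 1b-/- libraries, where 3 counts is the limit that a count of 0 allows. *Gna15* had 3 and 0 counts in WT, 8, 12, 23 and 1 in 1b+/- and 4 and 2 in 1b-/-. *Rgs11* had 6 in each WT library, 23, 16, 37 and 2 in 1b+/- and 11 and 10 in 1b-/-.

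The 28 dynamin and clathrin-endocytosis genes had log2 fold changes between -0.32 and 0.18 in 1b+/- and between -0.20 and 0.12 in 1b-/- against WT. *Dnm2* was at 0.08 ± 0.13 and 0.08 ± 0.15, and *Dnm3* at -0.13 ± 0.14 and -0.03 ± 0.16. *Snap91*, which encodes the clathrin assembly protein AP180, had the smallest p. It was at 392 and 378 CPM in WT, at 280, 321, 358 and 277 CPM in 1b+/- and at 352 and 334 CPM in 1b-/-. Its log2 fold change in 1b+/- against WT was -0.32 ± 0.14.

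Of 54 other non-channel epilepsy genes, all were tested. *Lgi1*, which encodes a secreted synaptic protein, was at 34.5 and 37.2 CPM in WT, at 26.5, 21.5, 30.5 and 26.0 CPM in 1b+/- and at 32.1 and 40.6 CPM in 1b-/-. The 4 heterozygous libraries were thus below all others. Of all genes, 5.93% showed this order against WT alone and 3.41% against 1b-/- alone. The share with both orders at once was not computed. *Lgi1* had a log2 fold change in 1b+/- of -0.45 ± 0.18 against WT and, for 1b-/- relative to 1b+/-, of 0.46 ± 0.18.

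**Figure D5:**
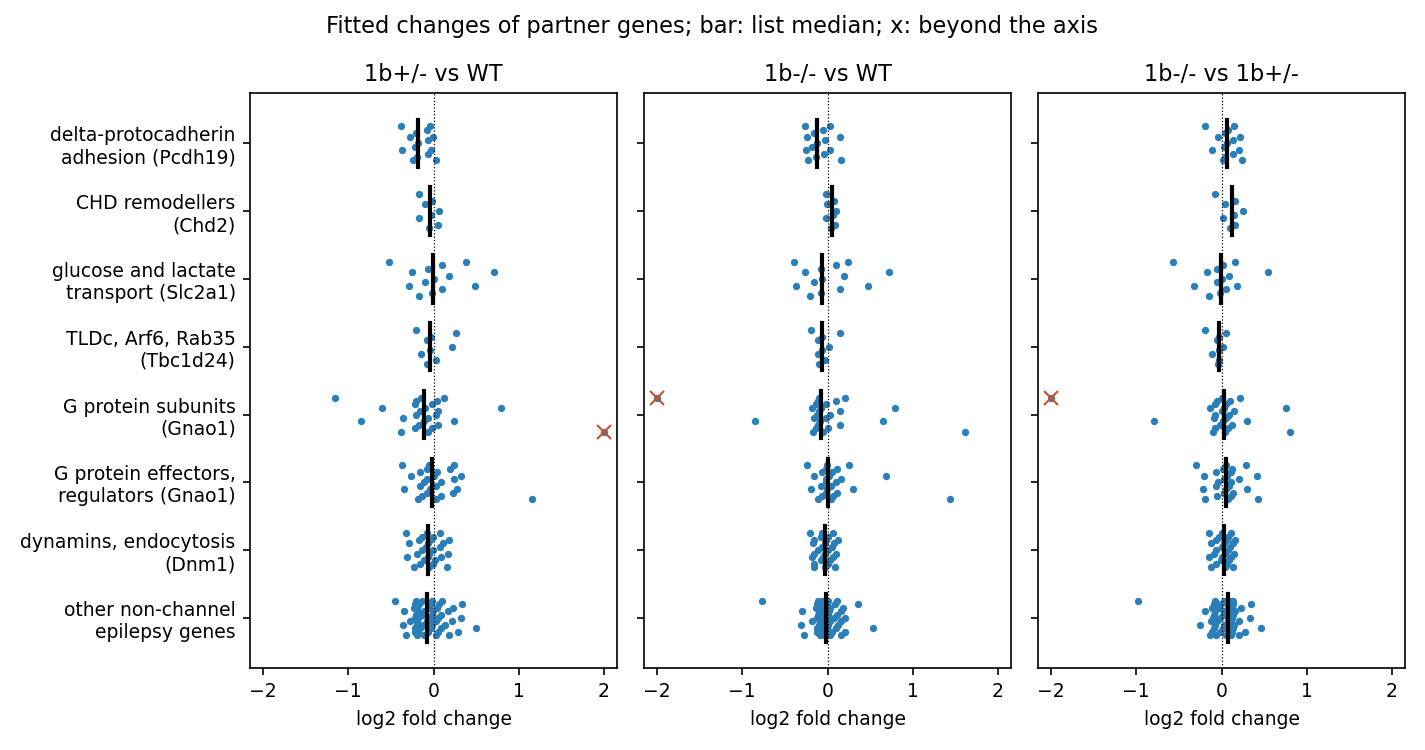
Fitted log2 fold changes of the partner genes by list (1 dot per gene, bar at the list median) in the 3 comparisons, with genes beyond the axis drawn as crosses at its edge. Most dots lie close to 0, and the outlying dots in the G protein lists include the low-count genes *Gnb3*, *Gna15* and *Rgs11*.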

How the data were processed

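The values are raw counts that the authors deposited, 1 column per mouse, from TruSeq Stranded mRNA libraries. Per the labels and the study's methods, single-end reads were aligned to mm9 with STAR 2.7.2 and counted per gene with featureCounts. Use of strand, treatment of reads with several matches and the annotation are not given in the sources used here. This bears on exon bases shared with antisense genes, which are 57 for *Pcdh19*, 105 for *Slc2a1* and 164 for *Gnao1*, and on genes with near-identical copies.

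Counts were fitted in R 4.3.3 with edgeR 4.0.16 (glmQLFit and glmQLFTest, TMM scaling, genotype as factor, all 8 libraries, genes reaching 1 CPM in 1 library or more). Adjustment was by Benjamini-Hochberg at 0.05, and SE and 95% intervals follow from the F statistic. CPM had a prior count of 2 in the correlations over genes with a mean of at least 10 CPM. No prior count was used for the tested pairs. Positions and exon lengths are from GENCODE vM1 on mm9. The fit was tested on simulated data in which changes in 1b-/- were larger than any fitted for the encephalopathy genes. That simulation therefore does not bear on changes of their size. P-values of edgeR set a difference against the spread between these mice, estimated in part over all genes. Permutation p-values treat the libraries as exchangeable. Counting errors leave out PCR copies, which the libraries do not mark.

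The 6 genes, the partner and marker lists and the rule for names (all members, their closest relatives, the smallest p in each direction per list and comparison, and the 3 genes with the highest r) were chosen with earlier results of these data known. Alternatives were filterByExpr or no filter, scaling by RLE or upper quartiles, a likelihood ratio test in edgeR, DESeq2 1.42.0, a sex covariate, fits of fewer groups and omission of each library. Alternatives for pairs of the 6 genes were added after seeing the data. Some listed genes that the rule names are not reported here.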

Additional observations from a re-analysis of the deposited data

How the results depend on the processing

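None of the 6 genes and none of the partner genes passed the adjusted threshold under any alternative run. Of 474 recomputed log2 fold changes of the 6 genes, 429 kept their sign and 45 changed it, 11 of these without an omitted library and all 11 close to 0. An unadjusted p under 0.05 occurred in 2, both without 1b+/- replicate 2 (*Gnao1* in 1b+/- against WT, and *Dnm1* in female against male). The changed signs had no call in any fit, and their cause was not tested. No paired analysis was possible because replicate numbers follow the order of deposit and link no mice across genotypes.

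With upper quartile scaling, the log2 fold change was 0.0025 for *Dnm1* in 1b+/- and 0.0135 for *Tbc1d24* in 1b-/- against WT, 0.0059 for the *Tbc1d24* slope and -0.0175 for *Chd2* in female against male. With sex as a covariate it was 0.0228 for *Dnm1* in 1b+/- and 0.0609 for *Gnao1* in 1b-/- against WT, -0.0014 for *Slc2a1* between the mutants and 0.0295 for the *Gnao1* slope. It was 0.0013 for *Tbc1d24* in 1b-/- against WT with only these groups fitted, 0.0289 for *Dnm1* in 1b+/- against WT in males alone, and -0.00025 for the *Dnm1* slope with no filter.

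Omitting each library in turn changed a sign in the following ranges. In 1b+/- against WT, *Chd2* ran from -0.0205 to 0.12 and *Dnm1* from -0.22 to 0.11. In 1b-/- against WT, *Pcdh19* ran from -0.36 to 0.0029, *Chd2* from -0.0279 to 0.19, *Slc2a1* from -0.0166 to 0.35, *Tbc1d24* from -0.0171 to 0.0027 and *Dnm1* from -0.24 to 0.23. Between the mutants, *Pcdh19* ran from -0.14 to 0.21, *Chd2* from -0.0723 to 0.15, *Slc2a1* from -0.17 to 0.19 and *Dnm1* from -0.21 to 0.26. The slope ran from -0.0015 to 0.0859 for *Chd2*, from -0.0363 to 0.0291 for *Tbc1d24* and from -0.10 to 0.0858 for *Dnm1*. Female against male, *Pcdh19* ran from -0.35 to 0.31, *Chd2* from -0.15 to 0.26, *Slc2a1* from -0.17 to 0.30, *Tbc1d24* from -0.14 to 0.37, *Gnao1* from -0.50 to 0.0537 and *Dnm1* from -0.49 to 0.43. Where an omission left 1 mouse in a group, that mouse was assumed to vary like the others.

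The 3 pairs that passed kept their sign under each alternative. By Spearman's rho 1 pair passed, with -0.810 for *Pcdh19* and *Chd2* and 0.881 for *Pcdh19* and *Dnm1* past no threshold. Without each library in turn 1 to 5 pairs passed (1 without 1b+/- replicate 2, 5 without 1b+/- replicate 3), and r ran from -0.954 to -0.908 for *Pcdh19* and *Chd2*, from 0.880 to 0.958 for *Pcdh19* and *Dnm1* and from -0.972 to -0.930 for *Chd2* and *Dnm1*. With RLE and upper quartile scaling 3 passed. The intervals give the sizes of change that are compatible with these data, and they are not limits of detection. The fitted change of *Scn1a* in 1b+/- against WT (-0.90) lay below all of them (lowest bound -0.67) and was not called. Groups of 2 WT and 2 1b-/- mice limit what can be detected.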
